A study of Homo sapiens with 8 samples.

Results

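The 57 genes described here drive entry into S phase or copy DNA during it. They were taken by gene symbol from a list of known S-phase genes that was drawn up with earlier results of these data known, and they fall into 6 roles: 17 MCM helicase and origin factors, 9 genes of the sliding clamp, its loader and replication protein A, 11 polymerase, primase and Okazaki fragment genes, 5 genes of nucleotide synthesis and uracil removal, 11 cyclin, CDC25A and E2F genes, and 4 partners of replicating chromatin. The RNA-seq table listed 56 of the 57 among its 17927 genes and the Ribo-seq data 56 among 14019, with 55 listed in both. CCND2 was not listed in RNA-seq and CCNE1 was not listed in Ribo-seq.

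The libraries came from SH-SY5Y, an established human neuroblastoma line with features of sympathetic noradrenergic neurons. Knockdown cells carried a short hairpin RNA against RPS29 (labelled shRPS29) and control cells a control hairpin (labelled shCONT), and all groups share the parental line. RPS29 is a protein of the small ribosomal subunit. Each group held 2 RNA-seq and 2 Ribo-seq libraries, and Ribo-seq counts fragments that ribosomes protect from nuclease. The labels give neither the number of hairpins nor the time after their delivery, and do not say whether replicates were separate cultures, so p-values measure the spread between these libraries, which may be technical.

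Replication is prepared in G1, when the origin recognition complex (ORC), CDC6 and CDT1 load the ring of MCM2 to MCM7 onto DNA. Cyclin-dependent kinases and CDC7 then turn that ring into an active helicase with CDC45 and the GINS complex, and polymerases follow on the PCNA clamp. E2F transcription factors, held in check by the retinoblastoma protein until D-type and E-type cyclins act, switch on most of these genes together, and neuroblastoma lines in culture cycle and express them.

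RPS29 itself had 147 and 117 RNA-seq counts after knockdown, against 2430 and 2872 in the controls, a log2 fold change of -4.40 ± 0.12 (SE, edgeR quasi-likelihood test, adjusted p = 6.32e-12). RNA-seq libraries held 17539104 to 19156104 counts and agreed closely, with Spearman correlations across genes of 0.985 to 0.993. Ribo-seq libraries held 2630463 to 4375971 counts, and knockdown replicate 1 stood apart there, with correlations of 0.528 and 0.455 with the controls against 0.743 and 0.692 for knockdown replicate 2. The 2 Ribo-seq controls correlated at 0.827 and the 2 knockdown libraries at 0.732, so knockdown replicate 2 was no closer to its own replicate than to control replicate 1. Of 8 noradrenergic markers, 1 was higher and 1 lower among the 7 tested, with summed levels of 4610 and 4480 CPM (counts scaled to a common library size) in knockdown and 4240 and 4390 CPM in control libraries, and TH was near 0 in all 4. Of 10 markers of epithelial, immune and endothelial cells, 7 were listed, with summed levels of 13.6 and 18.3 CPM in knockdown and 10.9 and 13.2 CPM in control libraries. Of the 5 tested, CD68 and CD14 were higher (log2 fold changes of 0.77 and 1.37, adjusted p = 0.00848 and 0.0440) and CDH1 was lower (-3.34, 0.00507). CDH1 had only 2 and 1 counts in knockdown and 11 and 20 in control libraries. CD14 had 27 and 25 in knockdown and 7 and 12 in control, and CD68 173 and 229 in knockdown and 103 and 121 in control. Their part in the results was not tested.

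The 6 promoter stretches that follow are shown because 3 belong to members whose RNA was lower in the knockdown (MCM6, LIG1, CDT1) and 3 to members whose RNA was higher (E2F1, CDC25A, RFC3), and all 6 carry the same kind of E2F letters. Each holds the 160 bases before the gene's start in RefSeq on GRCh38.p14, read 5′ to 3′ on the gene's strand, and capitals mark a match to an E2F motif. The genes were chosen after their values were seen.
MCM6: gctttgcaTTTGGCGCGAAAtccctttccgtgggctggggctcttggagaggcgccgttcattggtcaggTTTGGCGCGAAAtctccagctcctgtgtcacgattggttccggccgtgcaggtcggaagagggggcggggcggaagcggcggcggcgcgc
LIG1: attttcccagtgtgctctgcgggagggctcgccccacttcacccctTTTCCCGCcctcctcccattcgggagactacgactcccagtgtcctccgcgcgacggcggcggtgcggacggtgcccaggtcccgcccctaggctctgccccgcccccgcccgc
CDT1: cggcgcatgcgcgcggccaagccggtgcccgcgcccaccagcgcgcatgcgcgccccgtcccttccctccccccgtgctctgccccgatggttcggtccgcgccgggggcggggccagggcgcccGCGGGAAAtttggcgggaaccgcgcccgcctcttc
E2F1: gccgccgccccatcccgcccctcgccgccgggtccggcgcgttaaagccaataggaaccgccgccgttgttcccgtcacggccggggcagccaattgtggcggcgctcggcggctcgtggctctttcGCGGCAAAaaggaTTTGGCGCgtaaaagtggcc
CDC25A: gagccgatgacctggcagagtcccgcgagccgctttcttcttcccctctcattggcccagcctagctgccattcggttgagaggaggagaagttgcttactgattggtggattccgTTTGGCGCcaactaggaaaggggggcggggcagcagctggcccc
RFC3: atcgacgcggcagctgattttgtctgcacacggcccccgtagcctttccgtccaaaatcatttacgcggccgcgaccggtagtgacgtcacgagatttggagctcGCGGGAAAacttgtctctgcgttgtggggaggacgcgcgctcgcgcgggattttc
The stretches lie at chr2:135876444-135876603 on the minus strand for MCM6, chr19:48170345-48170504 on the minus strand for LIG1, chr16:88803629-88803788 on the plus strand for CDT1, chr20:33686386-33686545 on the minus strand for E2F1, chr3:48188418-48188577 on the minus strand for CDC25A and chr13:33817989-33818148 on the plus strand for RFC3.

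The motifs searched, on both strands, were TTTCCCGC, TTTCGCGC, TTTGCCGC and TTTGGCGC. In MCM6 each run of 12 capitals is a pair of overlapping matches, 1 per strand. Over windows of 300 bases (250 before to 50 after the start), 25 of the 47 members matched to a promoter held a motif (53.2%), against 1090 of all 27305 genes with a promoter in the same table (3.99%). Matches were found in 9 of 14 origin factors, 2 of 7 clamp, loader and RPA genes, 5 of 10 polymerase and Okazaki fragment genes, 2 of 5 nucleotide genes, 4 of 7 cyclin, CDC25A and E2F genes and 3 of 4 partners. A match was present in 3 of 8 members with higher RNA, 8 of 14 with lower RNA and 14 of 25 that were not called. The median RNA-seq log2 fold change was -0.10 over the 25 members with a match and -0.14 over the 22 without. The motif thus marked members that moved either way and members that did not pass the test. A match is a description of letters and not evidence of a bound site.

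In RNA-seq the members moved by modest amounts in both directions, with more lower than higher. Of the 56 tested, 17 fell (30.4%) and 10 rose (17.9%) in the knockdown at an adjusted p below 0.05, while over all 14723 genes tested 16.3% fell and 14.4% rose. The share that rose was thus close to the share among all genes, and the share that fell was above it. The median log2 fold change of the members was -0.11, against 0.01 over all genes, and the range was -0.70 to 0.62. Both knockdown libraries lay below both controls in 33 members (58.9%, against 32.9% of all genes) and above both in 13 (23.2%, against 32.3%). No member passed a test against a change of 1.5-fold, and few genes did over the whole table, where 1.13% fell and 0.469% rose. In these bulk libraries, fewer cells in S phase and less RNA per cell cannot be told apart. Other cell-cycle genes moved too: CDKN1A, which encodes the CDK inhibitor p21, averaged 509.5 ± 68.9 CPM in knockdown and 191.3 ± 6.31 CPM in control libraries (SD, n = 2 each), and the proliferation marker MKI67 averaged 169.9 ± 12.3 CPM in knockdown and 371.0 ± 13.7 CPM in control libraries. Their log2 fold changes were 1.41 and -1.13, those of the mitotic genes CCNB1 and CDK1 were -1.05 and -0.47, and their part in the changes of the members was not tested.

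**Figure D1:**
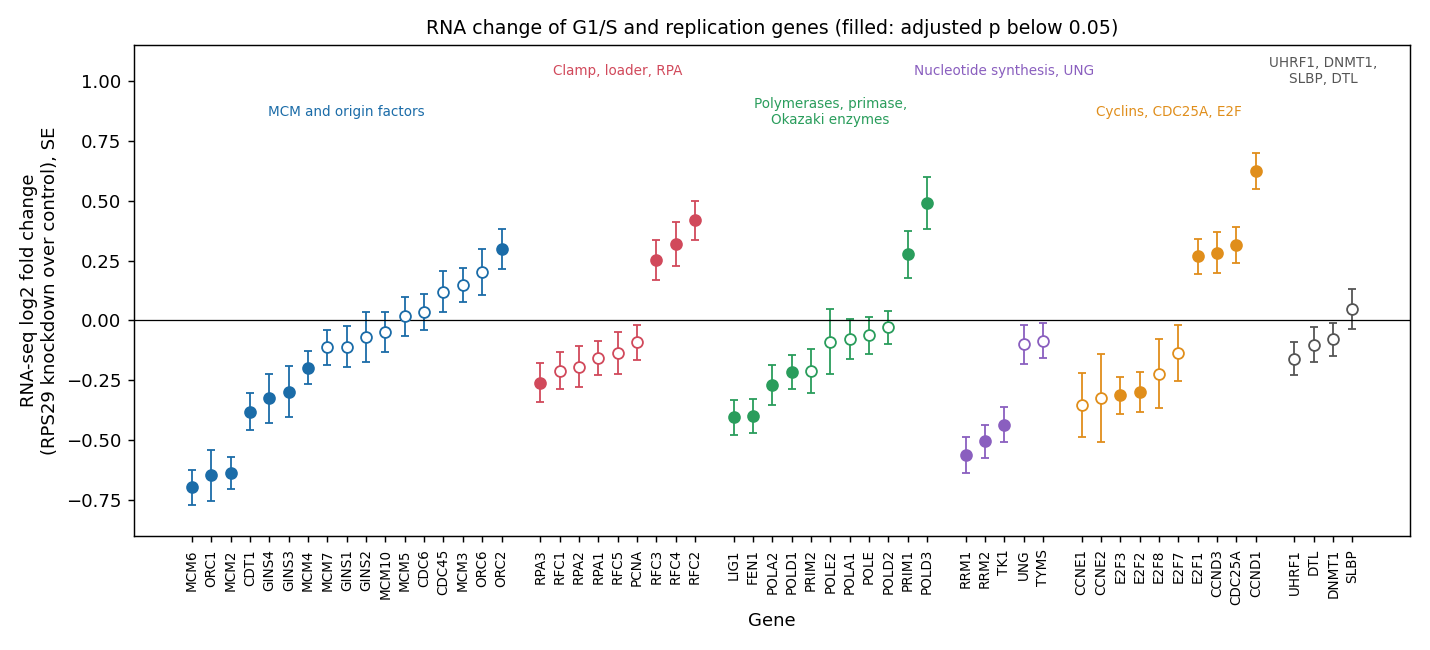
RNA-seq log2 fold change (knockdown over control, vertical axis) of the 56 tested members, grouped by role along the horizontal axis and ordered by size within each role. Points are edgeR estimates, bars are ± 1 SE, and filled points have an adjusted p below 0.05. The lowest value is MCM6 at -0.70 and the highest is CCND1 at 0.62, and each role but nucleotide synthesis and the 4 partners holds filled points on both sides of 0.

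Of the 27 called members, 12 kept their call when any 1 of the 4 RNA-seq libraries was left out. These were MCM2, MCM6, CDT1, ORC1, FEN1, LIG1, RRM1, RRM2 and TK1, which were lower, and RFC2, POLD3 and CCND1, which were higher. Leaving out control replicate 1 ended 14 of the 27 calls, and leaving out control replicate 2 also ended 14. Leaving out knockdown replicate 1 ended 2 calls and knockdown replicate 2 ended 1. All 27 kept their direction in each case. Each such fit has 1 group with a single library, so its spread comes from the other group and the lone library is assumed to vary like it. DESeq2 did not call GINS3, GINS4, RFC3, RPA3, POLA2, POLD1 and PRIM1, voom did not call GINS3, and the fit with no count filter did not call GINS3 and PRIM1. Over all genes, 10% fell and 8.09% rose without control replicate 1, and 9.85% fell and 8.15% rose without control replicate 2, so fewer calls were made in the whole table as well.

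Among the 17 MCM and origin factors, 7 fell and 1 rose, with a median log2 fold change of -0.11. Of the MCM2 to MCM7 ring, whose subunits act in equal numbers, MCM2, MCM4 and MCM6 fell, while MCM3, MCM5 and MCM7 did not pass the test. MCM6 had 2396 and 2017 counts in knockdown libraries, against 3345 and 3420 in the controls. Scaled to library size it averaged 117.0 ± 8.13 CPM in knockdown and 189.6 ± 1.51 CPM in control libraries (SD, n = 2 each), with a log2 fold change of -0.70 ± 0.0740 (SE, edgeR, adjusted p = 9.3e-06). Its groups were clearly separated, and the same held for MCM2, which had 3800 and 3583 counts in knockdown and 5379 and 5502 in control libraries. MCM2 averaged 196.2 ± 2.10 CPM in knockdown and 304.9 ± 2.52 CPM in control libraries, at -0.64 ± 0.0679 on the log2 scale (adjusted p = 9.56e-06). MCM4 had 4761 and 4403 counts in knockdown and 4835 and 5133 in control libraries, and its smaller change of -0.20 (adjusted p = 0.0407) was lost without control replicate 1 (adjusted p = 0.230) or replicate 2 (0.441). The other ring subunits were at 0.15 for MCM3 (8473 and 7576 counts in knockdown, 6597 and 7127 in control, adjusted p = 0.137), 0.02 for MCM5 (0.899) and -0.11 for MCM7 (0.271). Whether the subunits differ from each other was not tested.

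ORC1, the largest ORC subunit and the one whose level is tied to the cell cycle in human cells, had 350 and 337 counts in knockdown and 514 and 506 in control libraries. It averaged 18.3 ± 0.466 CPM in knockdown and 28.6 ± 0.538 CPM in control libraries (SD, n = 2 each), a log2 fold change of -0.65 ± 0.1065 (adjusted p = 0.000365). ORC2, another subunit of the same complex, went the other way. It had 1241 and 1040 counts in knockdown and 872 and 885 in control libraries, at 60.5 ± 4.39 CPM in knockdown and 49.2 ± 0.135 CPM in control libraries, with a log2 fold change of 0.30 ± 0.0843 (adjusted p = 0.0147). The ORC2 call was lost without control replicate 1 (0.116) or replicate 2 (0.104), and ORC6 was at 0.20 without passing (0.124). CDT1, the loading factor that geminin blocks after S phase begins, had 1392 and 1210 counts in knockdown and 1587 and 1620 in control libraries. It averaged 69.0 ± 3.23 CPM in knockdown and 89.9 ± 0.614 CPM in control libraries, at -0.38 ± 0.0771 (adjusted p = 0.00177), while CDC6, which loads MCM with it, was at 0.04 and did not pass. GINS3 and GINS4, subunits of the GINS part of the helicase, fell by 0.30 (adjusted p = 0.0488) and 0.32 (0.0243) on the log2 scale. Their calls ended without control replicate 1 (0.0875 and 0.226) or replicate 2 (0.357 and 0.0709), that of GINS3 also without knockdown replicate 2 (0.0896). GINS1, GINS2, CDC45 and MCM10 had log2 fold changes of -0.11, -0.07, 0.12 and -0.05 and were not called.

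Among the 9 genes of the clamp, clamp loader and RPA, 3 rose and 1 fell, with a median of -0.13. All 3 that rose encode small subunits of replication factor C, the complex that opens the PCNA ring and places it on DNA. RFC2 had 2916 and 2345 counts in knockdown and 1855 and 1872 in control libraries. It averaged 139.4 ± 14.2 CPM in knockdown and 104.4 ± 0.133 CPM in control libraries (SD, n = 2 each), a log2 fold change of 0.42 ± 0.0804 (edgeR, adjusted p = 0.00121). RFC4 had 881 and 783 counts in knockdown and 603 and 662 in control libraries, at 0.32 ± 0.0910 (adjusted p = 0.0156). The RFC4 call ended without control replicate 1 (0.209). RFC3 had 2303 and 1875 counts in knockdown and 1589 and 1729 in control libraries, at 0.25 ± 0.0827 (adjusted p = 0.0307), and did not pass without knockdown replicate 1 (0.118), control replicate 1 (0.306) or control replicate 2 (0.0829). RFC1, the large subunit, and RFC5 were at -0.21 and -0.13 and were not called. RPA3, the smallest subunit of the complex that coats unwound DNA, had 996 and 928 counts in knockdown and 1061 and 1122 in control libraries, at -0.26 ± 0.0801 (adjusted p = 0.0235), and it too was lost without control replicate 1 (0.112) or replicate 2 (0.243). RPA1 and RPA2 were at -0.16 and -0.19, and neither passed. PCNA, the clamp itself and also a known p53 target, had 5409 and 4610 counts in knockdown and 4933 and 5170 in control libraries, at -0.09 (adjusted p = 0.375), and its groups overlapped in raw counts but not after scaling to library size.

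Of the 11 polymerase and Okazaki fragment genes, 4 fell and 2 rose, with a median of -0.09. The 2 enzymes that finish the lagging strand had the lowest values of the 11. FEN1, the nuclease that trims flaps between Okazaki fragments, had 3523 and 3108 counts in knockdown and 4003 and 4283 in control libraries, at 176.0 ± 6.40 CPM in knockdown and 232.1 ± 9.30 CPM in control libraries (SD, n = 2 each), with a log2 fold change of -0.40 ± 0.0709 (edgeR, adjusted p = 0.000652). LIG1, the ligase that joins the fragments, had 1609 and 1557 counts in knockdown and 1978 and 1995 in control libraries. It averaged 84.2 ± 2.45 CPM in knockdown and 111.3 ± 0.186 CPM in control libraries, also at -0.40 ± 0.0736 (adjusted p = 0.000802). POLD3, an accessory subunit of polymerase delta, had 575 and 613 counts in knockdown and 386 and 417 in control libraries, at 31.6 ± 3.08 CPM in knockdown and 22.5 ± 1.05 CPM in control libraries, and rose with a log2 fold change of 0.49 ± 0.1087 (adjusted p = 0.00322). POLD1, the catalytic subunit of the same polymerase, fell by 0.21 (2110 and 1896 counts in knockdown, 2238 and 2166 in control, adjusted p = 0.0358). Primase and the polymerase alpha it works with were also mixed. PRIM1, the catalytic primase subunit, had 885 and 711 counts in knockdown and 620 and 628 in control libraries, at 0.28 ± 0.0968 (adjusted p = 0.0429). POLA2, the second subunit of polymerase alpha, had 1157 and 990 counts in knockdown and 1266 and 1185 in control libraries, at -0.27 ± 0.0833 (adjusted p = 0.0233). The calls of POLD1, POLA2 and PRIM1 ended without control replicate 1 (0.350, 0.275 and 0.187) or control replicate 2 (0.172, 0.0593 and 0.179), that of PRIM1 also without knockdown replicate 1 (0.229). POLA1, POLD2, POLE, POLE2 and PRIM2 lay between -0.21 and -0.03 and were not called.

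Of the 5 nucleotide genes 3 fell and none rose, with a median of -0.43. RRM1 and RRM2 encode the large and the small subunit of ribonucleotide reductase, which makes deoxynucleotides for S phase. RRM1 had 2695 and 2633 counts in knockdown and 3525 and 3939 in control libraries, at 141.7 ± 5.07 CPM in knockdown and 209.1 ± 14.8 CPM in control libraries (SD, n = 2 each), with a log2 fold change of -0.56 ± 0.0749 (edgeR, adjusted p = 6.6e-05). RRM2 had 4075 and 3964 counts in knockdown and 5267 and 5551 in control libraries, at -0.50 ± 0.0697 (adjusted p = 8.81e-05). TK1, the thymidine kinase of the salvage pathway, had 1836 and 1684 counts in knockdown and 2168 and 2342 in control libraries, at -0.43 ± 0.0737 (adjusted p = 0.000463). The groups of all 3 genes were separated, and their calls held without any 1 library. TYMS, which makes thymidylate, had 5406 and 4743 counts in knockdown and 4830 and 5365 in control libraries, which overlap, and UNG, which removes uracil from DNA, was at -0.10. Neither passed the test.

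**Figure D2:**
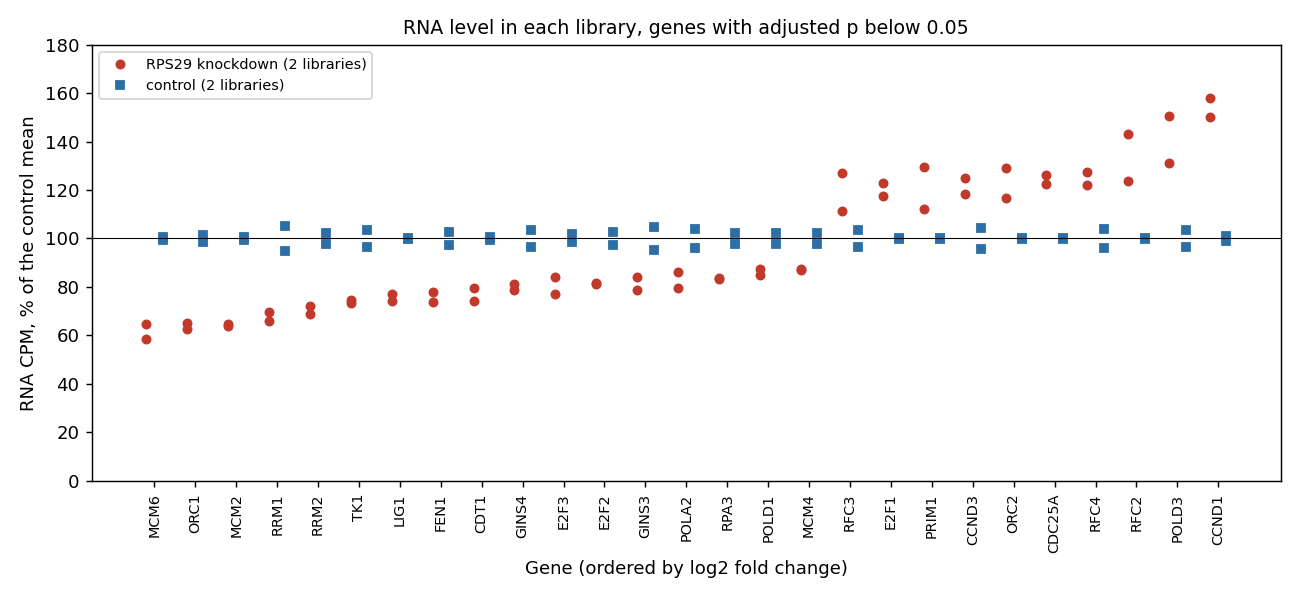
RNA level of each of the 27 called members in each library, as a percentage of the gene's control mean in CPM (vertical axis, starting at 0), with red circles for the 2 knockdown libraries and blue squares for the 2 controls. The circles lie below both squares for the 17 genes from MCM6 to MCM4 and above both for the 10 genes from RFC3 to CCND1.

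The cyclin, CDC25A and E2F genes were split: of the 10 tested in RNA-seq, 4 rose and 2 fell, with a median of -0.18. CCND1, which encodes cyclin D1, the partner of CDK4 and CDK6, had 27624 and 24348 counts in knockdown and 15700 and 16267 in control libraries. It averaged 1379.5 ± 51.0 CPM in knockdown and 895.7 ± 15.6 CPM in control libraries (SD, n = 2 each), a log2 fold change of 0.62 ± 0.0762 (edgeR, adjusted p = 3.21e-05). This was the largest rise among the tested members, and its groups were far apart. CCND3, which encodes cyclin D3, had 1157 and 1136 counts in knockdown and 929 and 859 in control libraries, at 0.28 ± 0.0841 (adjusted p = 0.0191). The E-type cyclins, which activate CDK2 at the end of G1, had lower values that did not pass the test. CCNE1 had 279 and 268 counts in knockdown and 365 and 298 in control libraries, at -0.35 ± 0.1333 (adjusted p = 0.0571). CCNE2 had 147 and 119 counts in knockdown and 173 and 142 in control libraries, at -0.32 ± 0.1845 (adjusted p = 0.208). CCNE1 was called without knockdown replicate 2 (0.0324) or control replicate 2 (0.0234). CCND3 was not called without control replicate 1 (0.0518) or control replicate 2 (0.266).

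CDC25A, the phosphatase that removes the inhibitory phosphate from CDK2, had 1910 and 1825 counts in knockdown and 1412 and 1436 in control libraries. It averaged 99.3 ± 1.99 CPM in knockdown and 79.8 ± 0.335 CPM in control libraries, at 0.32 ± 0.0741 (edgeR, adjusted p = 0.00488). Of the activating E2F factors, E2F1 rose and E2F2 and E2F3 fell. E2F1 had 2141 and 1900 counts in knockdown and 1580 and 1601 in control libraries, at 0.27 ± 0.0737 (adjusted p = 0.0128). E2F2 had 809 and 757 counts in knockdown and 934 and 892 in control libraries, at -0.30 ± 0.0844 (adjusted p = 0.0147). E2F3 had 1535 and 1559 counts in knockdown and 1784 and 1864 in control libraries, at -0.31 ± 0.0776 (adjusted p = 0.00696). The groups of these 4 genes did not overlap. Without control replicate 1 or control replicate 2, the adjusted p was 0.0780 or 0.0695 for CDC25A, 0.147 or 0.139 for E2F1 and 0.193 or 0.0621 for E2F2, and that of E2F3 was 0.0986 without control replicate 2. The atypical repressors E2F7 and E2F8 had 363 and 400 and 216 and 247 counts in knockdown, against 398 and 399 and 256 and 257 in control libraries. They were at -0.14 (0.417) and -0.22 (0.268) and were not called.

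None of the 4 partners passed the test in RNA-seq. UHRF1, which reads newly copied, hemimethylated DNA behind the fork, was at -0.16 (adjusted p = 0.105), DNMT1, the maintenance methyltransferase it recruits, at -0.08 (0.431), and DTL, a substrate receptor of the ubiquitin ligase that destroys CDT1 at the fork, at -0.10 (0.335). SLBP, which binds the stem-loop of replication-dependent histone mRNAs, had 1666 and 1405 counts in knockdown and 1331 and 1482 in control libraries, at 0.05 ± 0.0832 (adjusted p = 0.705), so its RNA groups overlapped.

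Beyond the 57, a list of 56 other replication and G1/S genes had 13 of 55 tested lower (23.6%, against 16.3% of all genes) and 7 higher (12.7%, against 14.4%), with a median of -0.10. CDK6, the kinase that cyclin D1 activates, had 4008 and 4200 counts in knockdown and 5633 and 5392 in control libraries, at -0.50 (edgeR, adjusted p = 0.000205). TIMELESS and CLSPN, which guard the moving fork, were at -0.46 (0.000339) and -0.45 (0.00115), and ATAD2, a chromatin ATPase, was at -0.40 (0.00129). RRM2B, the p53-inducible small subunit of ribonucleotide reductase, had 1058 and 1099 counts in knockdown and 738 and 784 in control libraries and rose, at 0.43 (0.00185), where RRM2 fell. CDC25C, which acts at mitotic entry, was at -0.67 (0.00198).

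Ribo-seq showed fewer calls and larger estimates. Of the 53 members tested, 2 fell (3.77%), RRM2 and SLBP, and none rose, while over all 11853 genes 0.607% fell and 7.96% rose. At an unadjusted p below 0.05 there were 15 of the 53 members, in either direction, and 2735 of the 11853 genes. DESeq2 called 4 members lower and none higher, and over all genes 1.39% lower and 9.45% higher. The median log2 fold change was -0.84, against 0.04 over all genes. Without knockdown replicate 1, the library that stood apart, the median was -0.76 and no member was called, and without knockdown replicate 2 it was -1.18. Both knockdown libraries lay below both controls in 28 of the 53 (52.8%, against 26.7% of all genes) and above both in 8 (15.1%, against 29%). The other replication and G1/S genes had a median of -0.29 over 52 tested, with none called. Of these, 28.8% lay below both controls and 15.4% above both. The origin factors were at a median of -1.23, with 12 of 16 below both controls, and all 4 partners lay below both controls, at -1.35. Medians were -0.98 for nucleotide genes, -0.37 for polymerase and Okazaki fragment genes, -0.35 for cyclin, CDC25A and E2F genes and -0.26 for clamp, loader and RPA genes. With the scaling over all genes, 36 of the 52 members tested in both assays had a Ribo-seq value below their RNA-seq value, and 26 were negative in both. The share over all genes was not computed for these counts. For translational efficiency, described below, 65.4% of the members and 48.1% of all genes tested had a negative value.

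**Figure D3:**
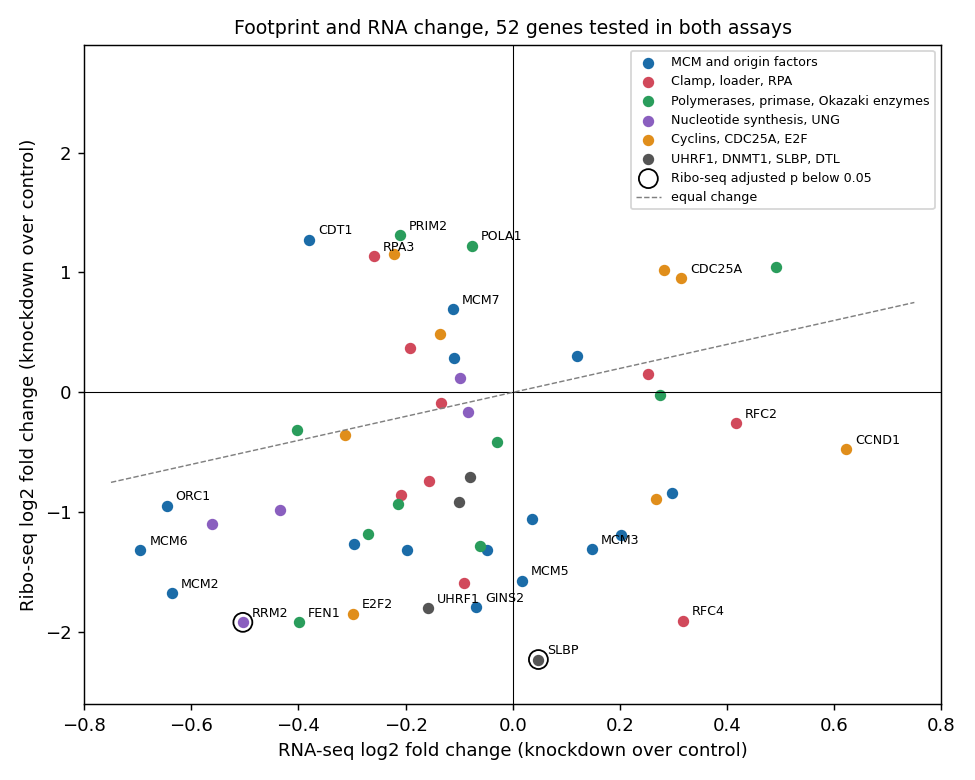
Ribo-seq log2 fold change (vertical axis) against RNA-seq log2 fold change (horizontal axis), knockdown over control, for the 52 members tested in both assays, coloured by role. The dashed line marks equal change, and the rings mark RRM2 at -1.92 and SLBP at -2.23 in Ribo-seq, which had an adjusted p below 0.05 there. A total of 36 of the 52 points lie below the line, with no share over all genes computed, and the vertical scale is wider than the horizontal one.

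SLBP had 9 and 32 footprint counts after knockdown and 104 and 84 in the controls. It averaged 5.88 ± 3.03 CPM in knockdown and 28.3 ± 3.93 CPM in control libraries (SD, n = 2 each), a log2 fold change of -2.23 ± 0.65 (edgeR, adjusted p = 0.0429), beside RNA that did not differ beyond its spread. RRM2 had 30 and 54 footprint counts in knockdown and 173 and 155 in control libraries, at 13.0 ± 0.756 CPM in knockdown and 49.3 ± 3.26 CPM in control libraries, with a log2 fold change of -1.92 ± 0.56 (adjusted p = 0.0427). Both calls were lost without any 1 of the 4 libraries: without knockdown replicate 1, knockdown replicate 2, control replicate 1 and control replicate 2, in that order, the adjusted p was 0.196, 0.0615, 0.169 and 0.166 for SLBP and 0.102, 0.0759, 0.220 and 0.274 for RRM2. Voom did not call SLBP. Next to the threshold were FEN1 with 20 and 61 counts in knockdown and 162 and 138 in control libraries (-1.91, adjusted p = 0.0517), UHRF1 with 53 and 78 in knockdown and 198 and 282 in control (-1.80, 0.0528) and GINS2 with 19 and 37 in knockdown and 98 and 101 in control (-1.79, 0.0732). PCNA had 43 and 235 counts in knockdown and 446 and 327 in control libraries (-1.58, 0.125).

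Within the MCM ring, all subunits but MCM7 had fewer footprints in both knockdown libraries. MCM2 had 41 and 175 counts in knockdown and 214 and 435 in control libraries (-1.67, adjusted p = 0.104), MCM3 had 133 and 364 in knockdown and 472 and 734 in control (-1.31, 0.174), and MCM6 had 18 and 83 in knockdown and 84 and 153 in control (-1.31, 0.224). MCM4 and MCM5 were at -1.32 and -1.57, and none of the 5 passed the test. Among members above both controls, CDT1 had 124 and 83 footprint counts in knockdown and 57 and 42 in control libraries, at 1.27 ± 0.61 (adjusted p = 0.222), beside RNA that fell. CDC25A had 94 and 101 in knockdown and 45 and 65 in control, at 0.95 (0.351). For CCND1, whose RNA rose, the counts were 109 and 431 in knockdown and 406 and 306 in control libraries, at -0.48 (0.682), so its footprint groups overlapped.

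MCM7 was unlike the rest of the ring in the number of its Ribo-seq reads. It had 16927 and 32081 counts in knockdown and 20333 and 10760 in control libraries, which is 0.644 and 0.733% of all knockdown counts and 0.701 and 0.333% of all control counts. In RNA-seq it took 0.0588 and 0.0572% in knockdown and 0.0588 and 0.0601% in control libraries. Footprints per RNA, as a ratio of mean CPM, were 13.3 in knockdown and 7.64 in control cells for MCM7, and 0.121 to 0.172 in knockdown and 0.188 to 0.473 in control cells for MCM2 to MCM6. The MCM7 gene (chr7:100092728-100101397, GRCh38.p14) holds 3 microRNA genes, MIR106B, MIR93 and MIR25, on its minus strand, and overlaps AP4M1. Their main mature forms in RefSeq are shown, because a count per gene symbol does not say which reads lie in them, with the seed (bases 2 to 8) in capitals.
hsa-miR-106b-5p: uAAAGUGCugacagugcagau
hsa-miR-93-5p: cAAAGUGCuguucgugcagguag
hsa-miR-25-3p: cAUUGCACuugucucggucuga
The first pair share the seed AAAGUGC and miR-25-3p has AUUGCAC. The count table does not separate them from MCM7, and their part in its counts was not tested. The MCM7 Ribo-seq log2 fold change of 0.69 ± 0.84 (edgeR, adjusted p = 0.683) is therefore given without a reading as translation.

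Ribo-seq counts per kb of gene span also differed between the groups in genes with little or no RNA-seq signal. Read positions were not examined, so the scaling by span below assumes that background reads spread over whole genes. The rate was taken from 1284 genes listed in Ribo-seq with an RNA level of at most 0.1 CPM. Genes not listed in RNA-seq, such as CCND2, were counted as 0 there. Whether knockdown counts brought genes into this set was not tested. Its median Ribo-seq rate was 0.355 and 0.268 counts per kb of span in knockdown and 0.0824 and 0.0464 in control libraries. Scaled by span, this background would give over 25% of the knockdown counts in 26 of the 56 members listed in Ribo-seq and over 25% of the control counts in 4, with medians of 23.9% in knockdown and 2.97% in control. RRM2 would receive 31.4 and 23.7 background counts in knockdown and 7.29 and 4.10 in control libraries, so the 30 counts of knockdown replicate 1 are not above it. The RRM2 span also holds a snoRNA (LOC124906144) and MIR4261, the PCNA span a snoRNA (LOC124900464) and the UHRF1 span MIR4747, whose part in the counts was not tested. SLBP would receive 6.95 and 5.24 in knockdown and 1.62 and 0.909 in control. POLA1, which spans 303 kb and holds SCARNA23, had 183 and 176 counts in knockdown and 99 and 72 in control libraries (1.22, adjusted p = 0.198). Less the 107.5 and 81.1 expected in knockdown and 24.99 and 14.1 in control, these are 75.5 and 94.9 in knockdown and 74.0 and 57.9 in control. The counts of PRIM2, 16 and 45 in knockdown and 8 and 16 in control, lie below its expected background in every library.

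**Figure D4:**
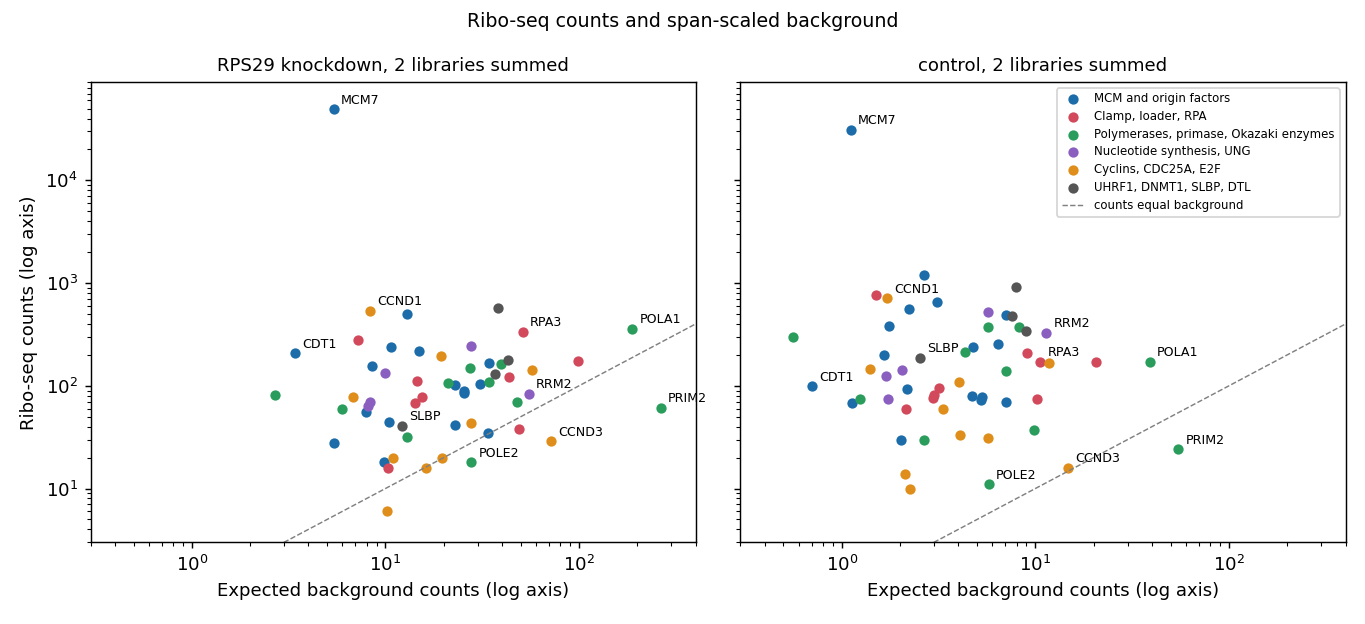
Ribo-seq counts of each listed member, summed over 2 libraries (vertical log axis), against the counts expected from the background over its gene span (horizontal log axis), for knockdown (left) and control (right). Points near the dashed line have about as many counts as the background alone, and in knockdown the points lie nearer to it (median background share 23.9%) than in control (2.97%), with MCM7 far above it in both panels.

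Among the genes whose expected background was at most 10% of their counts, 29 members were tested and none was called, while of all 3855 such genes 0.0259% fell and 2.18% rose. Scaling on these genes alone moved all of them up by nearly the same amount, with a median shift of 0.65 on the log2 scale over the 3855 genes and 0.56 to 0.80 over the 29 members. The median of the 29 was thus -1.09, against -0.65 over the 3855, with the scaling over all genes, and -0.43, against -0.01, with the scaling over these genes. The members lay about as far below the other genes under either scaling, while 24 of the 29 were negative under the first and 21 under the second. The sign of a Ribo-seq or translational efficiency value between 0 and the size of this shift, such as that of CCND1 in Ribo-seq (-0.48 and 0.11), depends on the scaling. SLBP was at -1.63 with the second scaling (adjusted p = 0.166). This restriction was chosen after the data were seen. Because its limit applied to summed counts, genes with many control counts could pass with a larger background share in knockdown. The share for SLBP was 29.7% in knockdown and 1.34% in control, and for UHRF1 28.1% and 1.59%. The selection thus used the counts being compared, and the set was not free of knockdown background.

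Translational efficiency, the change of footprints beyond the change of RNA, was tested as an interaction in 1 edgeR model over all 8 libraries. Of the 52 members tested, 1 fell (1.92%), SLBP, and none rose, while over all 10648 genes 0.873% fell and 3.01% rose. The median was -0.49, against 0.06 over all genes. For the other replication and G1/S genes it was -0.05 over 52 tested, with none called. An unadjusted p below 0.05 in this test, in either direction, was found for 18 of the 52 members and 2770 of all 10648 genes. SLBP was at -2.14 ± 0.46 (adjusted p = 0.0460), with fewer footprints in both knockdown libraries beside overlapping RNA. This SE is smaller than the 0.65 of SLBP in Ribo-seq alone, although the interaction also contains the Ribo-seq error. The model held 1 dispersion per gene for RNA-seq and the more variable Ribo-seq, so the p-values of this test may be too small. Without any 1 of the RNA-seq libraries the adjusted p of SLBP was 0.218 to 0.268 and no gene of the table was called, and without Ribo-seq control replicate 2 it was 0.0573. With no count filter it also missed the threshold. With scaling over low-background genes, which moved their translational efficiency up by a median of 0.59, SLBP was at -1.59 (0.0681), and 0% of the 3681 genes tested fell and 0.272% rose. UHRF1 (-1.52, adjusted p = 0.0503), RRM2 (-1.30, 0.0543), GINS2 (-1.60, 0.0547) and RFC4 (-2.09, 0.0593) lay just outside the threshold. RFC4, whose RNA rose, rests on 4 and 12 footprint counts in knockdown and 35 and 25 in control libraries. CDT1 was at 1.76 (0.106) and CCND1 at -0.98 (0.295).

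Leaving out Ribo-seq libraries moved the number of members with lower translational efficiency between 0 and 19. It was 8 without knockdown replicate 1, 19 without knockdown replicate 2, 5 without control replicate 1 and 0 without control replicate 2. Members with higher translational efficiency numbered 1, 4, 2 and 0 in those cases. All genes moved with them: without knockdown replicate 2, 15% of all genes fell and 17.9% rose. The counts of calls in translational efficiency thus follow the choice of libraries, and the values of single members are given here as estimates.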

How the data were processed

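The authors deposited raw counts by gene symbol, 1 table for each assay. Per the labels, RNA-seq libraries were stranded and made from total RNA, and Ribo-seq used RNase I digestion, size-exclusion isolation of single ribosomes and rRNA depletion. The submitters' processing notes name STAR, Bowtie2, Salmon, featureCounts and Trim Galore with hg38. Versions, annotation and the regions counted in Ribo-seq were not given in the sources used here. Overlapping genes and near-identical copies may share reads.

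The 8 libraries were grouped by title (4 groups of 2). Genes were tested by quasi-likelihood with edgeR 4.0.16 (R 4.3.3), with TMM scaling, filterByExpr and Benjamini-Hochberg adjustment over all genes tested, at an adjusted p below 0.05. The SE is the absolute log2 fold change over the square root of F, and CPM uses TMM factors. Translational efficiency is the interaction of assay and condition in 1 model with 1 dispersion per gene for both assays. The code was tested on simulated data. Spans, promoters and microRNAs come from RefSeq (GRCh38.p14) by symbol, which matched 13956 of 14019 Ribo-seq genes and promoters of 47 members.

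The members and lists were chosen with earlier results of these data known. Given in full are, per role, up to 4 called members with the smallest RNA-seq p and up to 2 with the largest called increase, all cyclin and E2F genes, members called in the other tests, the 6 other pathway genes with the smallest p, and the context genes. Others were chosen after their values were seen. Alternatives were RLE scaling, DESeq2 1.42.0, voom of limma 3.58.1, no count filter, a mean of 50 counts in each group, a 1.5-fold test, a replicate block, each library left out and, added later, genes with low expected Ribo-seq background.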

Additional observations from a re-analysis of the deposited data

How the results depend on the processing

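All 27 called RNA-seq members kept their direction under every alternative run. RLE scaling and the mean of 50 counts kept all 27 calls, voom 26, no count filter 25, DESeq2 20 and the replicate block 21 (all but MCM4, GINS3, RFC3, RPA3, POLD1 and PRIM1). Against a 1.5-fold change no member passed, so each RNA-seq count was 0, in either direction and for each role and the other pathway genes. Over all genes, 1.13% fell and 0.469% rose in that test. Lower and higher members numbered 12 and 8 with DESeq2 and 13 and 8 with the replicate block, against 17 and 10. Calls fell in the whole table as well. Over all genes, 12.9% were lower and 10.7% higher with DESeq2, and 13.9% and 12% with the replicate block, against 16.3% and 14.4% as reported. Clamp, loader and RPA genes called lower were 0 with DESeq2 and the block and 2 with the mean of 50 counts. Polymerase genes called higher were 1 with DESeq2, no filter and the block, those called lower 2 with DESeq2, and other pathway genes called higher 3 with DESeq2. Leaving out 1 library, RNA-seq members lower ranged from 10 to 25 and higher from 3 to 12. For lower and higher these ranges were 4 to 9 and 0 to 3 for origin factors, 0 to 5 and 1 to 3 for the clamp, loader and RPA, 2 to 5 and 1 to 2 for polymerases, 1 to 3 and 1 to 4 for cyclin, CDC25A and E2F genes and 6 to 22 and 2 to 9 for other pathway genes. Partners called lower ranged from 0 to 1. Uncalled members changed sign when 1 library was left out: MCM5 ranged from -0.11 to 0.13, MCM10 from -0.15 to 0.049, CDC6 from -0.0048 to 0.076, GINS2 from -0.25 to 0.093, POLD2 from -0.072 to 0.012, POLE2 from -0.20 to 0.029 and SLBP from -0.027 to 0.12.

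Ribo-seq members called lower, 2 as reported, were 4 with DESeq2, 5 with voom, 4 with no filter, 9 with the replicate block and 0 with the mean of 50 counts, the 1.5-fold test or the low-background genes, and 0 to 1 with 1 library left out. Over all genes, 0.607% were called lower as reported, 1.39% with DESeq2, 1.44% with voom, 0.635% with no filter and 3.35% with the replicate block. The median of the members was -0.60 with the mean of 50 counts and -1.18 to -0.68 with 1 library left out. The fit on low-background genes shifts all of them up alike, by a median of 0.65 in Ribo-seq and 0.59 in translational efficiency. CCND1 in Ribo-seq, at 0.11 there, changed sign by this shift, and it ranged from -1.32 to 0.026 over leave-outs. In translational efficiency, 0.873% of all genes were called lower as reported, 1.09% with RLE, 6.34% with DESeq2 and 1.69% with voom. The share was 0.451% with no filter, 0.983% with the mean of 50 counts and 0% with the replicate block or low background. DESeq2 called 9.53% of all genes higher, against 3.01% as reported. Of the members there, 1 lower as reported became 3 with RLE, 8 with DESeq2 and 2 with voom. It became 0 with no filter, the mean of 50 counts, the replicate block or low background, while higher became 1 with DESeq2. The leave-out ranges were 0 to 19 lower and 0 to 4 higher. MCM6 was at 0.081 there in low-background genes, again by the shift, and ranged from -1.43 to 0.022. The causes of the other changes were not tested. Same-numbered libraries had correlated deviations of -0.06 in RNA-seq and 0.11 in Ribo-seq over 2 pairs, and no label gives them a shared batch, so the numbers were not taken as pairs. Depth limits Ribo-seq, where 9 of the 53 tested members had fewer than 10 counts in at least 1 library.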

Other observations

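CCND2, the third D-type cyclin gene, was listed only in Ribo-seq, with 11 and 9 counts after knockdown and 33 and 0 in the controls, which overlap (log2 fold change -0.54, edgeR, adjusted p = 0.867).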
